A study of Mus musculus with 12 samples.

Results

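The 9 genes described here are Nfe2l2, which encodes the transcription factor NRF2, and 8 of its textbook target genes: Hmox1, Osgin1, Gclc, Gclm, Slc7a11, Srxn1, Txnrd1 and Nqo1. They were chosen by name, with earlier results of these data known. Each matched 1 row of the deposited tables, so that they are 9 of 55487 genes. All 9 passed the filter on low counts, which kept 16836 genes. Of the 9, Hmox1 alone passed the test for a higher level on the injured side of the cortex in both genotypes. Osgin1 and Nfe2l2 passed it in STING cKO mice alone, and no gene of the 9 passed the test between genotypes. Of 22 alternative fits, the call of Hmox1 in control mice was lost in 6. In cKO mice the call of Osgin1 was lost in 6 and that of Nfe2l2 in 5. Nfe2l2 passed in control mice in 5 of the 22.

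NRF2 is held in the cytoplasm by KEAP1, which directs it to degradation. Oxidants and electrophiles modify KEAP1, and NRF2 then accumulates, enters the nucleus, pairs with a small MAF protein and binds antioxidant response elements in DNA. BACH1 pairs with the same small MAF proteins and represses many of these genes until heme releases it from DNA. The targets make and recycle glutathione and thioredoxin, supply NADPH, and break down heme. In the brain the pathway is known mainly from glia, and Hmox1 is a widely used marker of the response to heme and bleeding.

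Messenger RNA was measured in mouse cortex 2 hr after CCI, short for controlled cortical impact, where a piston strikes the exposed cortex on 1 side to imitate a head injury. Its title names acute STING signaling of microglia and peripheral white blood cells as the subject. The control genotype, called wt here, was CX3CR1cre-er/+, and the second, called cKO, was CX3CR1cre-er/+ STING fl/fl. All 12 mouse libraries therefore carried the Cre allele, which is inserted in and replaces 1 copy of Cx3cr1, a gene active in microglia and monocytes. STING is encoded by Tmem173. From each genotype there were 3 libraries of ipsilateral, injured-side cortex and 3 of contralateral cortex, and all groups had CCI. There was no sham or uninjured group, so the contralateral side of injured mice is the reference. The series' design text writes the second genotype with CX3CR1cre in place of CX3CR1cre-er. Tamoxifen, age, sex and the number of animals per library are not given in the sources used here. No source says that the libraries of a group are separate animals. The p-values therefore reflect library-to-library spread, which may be technical.

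Estimated counts per library ran from 7958931 to 33567194, and the lowest was cKO ipsilateral library 3. That library stood apart on the second principal component (14.5% of variance) and the third component (9.95%) had wt contralateral library 3 at its end. Tmem173, the targeted gene, was at 2.34 to 3.69 CPM (counts scaled to a common library size) in the 6 wt libraries and at 0.762 to 2.44 CPM in the 6 cKO libraries. The cKO minus wt difference of Tmem173 was -1.16 ± 0.35 on the log2 scale (SE) in contralateral and -0.84 ± 0.35 in ipsilateral cortex, and edgeR called neither (adjusted p = 1 and 0.816). Over both sides the cKO range thus overlapped the wt range, through cKO ipsilateral library 2 (2.44 CPM). In contralateral cortex the ranges did not overlap, at 0.762 to 1.96 CPM in cKO and 2.49 to 3.18 CPM in wt. The groups follow the labels. Markers of the cortical label were abundant in every library, and some differed by side. Summed neuron markers were at 7835 to 8186 CPM in wt contralateral and 7106 to 8125 CPM in wt ipsilateral libraries, and at 7671 to 8084 and 6799 to 6974 CPM in cKO. Of 8 neuron markers 0 were called in wt, and Snap25 fell in cKO. Summed astrocyte markers were at 3236 to 4167 and 4035 to 4427 CPM in wt and at 3352 to 3686 and 3960 to 4250 CPM in cKO, with 0 of 6 called in either genotype. Their part in the results was not tested. In bulk tissue, fewer cells of a type and less RNA per cell cannot be told apart.

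In mm10, Nfe2l2 lies at chr2:75675513-75704641 on the minus strand and Hmox1 at chr8:75093621-75100589 on the plus strand. Osgin1 lies at chr8:119434124-119446256 (plus) and Nqo1 at chr8:107388225-107403206 (minus). Gclc lies at chr9:77754535-77794485 (plus), Gclm at chr3:122245557-122270732 (plus) and Slc7a11 at chr3:49892526-50443614 (minus). Srxn1 lies at chr2:152105516-152111376 (plus) and Txnrd1 at chr10:82833951-82897712 (plus). All 9 are protein coding. Exons of Gclm overlap those of Gm17494 on the opposite strand, which was at 8.0 to 11.5 CPM by group mean, so Gclm values are less certain if reads were counted without strand.

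Promoter windows from RefSeq (GRCm38.p6, the 250 bases before the start site) were found for 7 of the 9 genes, with 3 alternative windows for Txnrd1. Hmox1 and Gclc had no window and were not searched. The 4 below are shown because they belong to genes that behaved differently after injury: Osgin1 and Nfe2l2, which passed the test in cKO mice, and Srxn1 and Slc7a11, which passed in neither genotype. They are written 5′ to 3′ on the strand of the gene, and capitals mark the motif matches described after them.
Osgin1 (chr8:119436897-119437146, plus strand): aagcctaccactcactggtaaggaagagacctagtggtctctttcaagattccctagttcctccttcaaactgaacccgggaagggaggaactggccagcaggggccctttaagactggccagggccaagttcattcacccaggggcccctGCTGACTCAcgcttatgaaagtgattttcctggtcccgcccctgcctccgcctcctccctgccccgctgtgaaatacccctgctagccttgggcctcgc
Nfe2l2 (chr2:75704664-75704913, minus strand): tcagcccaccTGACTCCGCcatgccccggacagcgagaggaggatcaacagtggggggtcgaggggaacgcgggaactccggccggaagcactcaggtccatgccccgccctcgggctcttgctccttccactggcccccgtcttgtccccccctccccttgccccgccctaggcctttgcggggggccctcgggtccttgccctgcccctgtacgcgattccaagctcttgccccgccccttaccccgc
Srxn1 (chr2:152105274-152105523, plus strand): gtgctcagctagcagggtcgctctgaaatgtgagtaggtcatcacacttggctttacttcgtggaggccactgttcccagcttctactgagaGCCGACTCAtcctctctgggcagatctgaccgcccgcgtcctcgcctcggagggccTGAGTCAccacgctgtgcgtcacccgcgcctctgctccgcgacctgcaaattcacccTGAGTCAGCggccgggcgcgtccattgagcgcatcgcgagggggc
Slc7a11 (chr3:50443614-50443863, minus strand): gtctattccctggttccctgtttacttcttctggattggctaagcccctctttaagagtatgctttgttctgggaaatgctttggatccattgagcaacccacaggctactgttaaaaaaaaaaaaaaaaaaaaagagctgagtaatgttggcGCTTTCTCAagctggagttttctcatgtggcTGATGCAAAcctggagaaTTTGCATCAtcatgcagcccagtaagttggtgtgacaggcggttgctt

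Each window was searched on both strands. The core of the antioxidant response element, TGACNNNGC, was in 10.2% of all 32851 RefSeq windows. Among the 7 genes searched it was found before the starts of Nfe2l2 (240 to 232 bases before the start), Gclm (134 to 126) and Txnrd1 in its second window (92 to 84). A form with G in the fourth place, TGAGNNNGC, was added after the sequences had been seen, and 14.4% of all windows hold it. It was found at 158 to 150 and at 45 to 37 bases before the start of Srxn1, at 97 to 89 before Slc7a11 and at 99 to 91 before Osgin1. The AP-1 motif TGANTCA, bound by FOS and JUN proteins, was in 6.75% of all windows. It lay at 102 to 96 and at 45 to 39 bases before Srxn1 and at 97 to 91 before Osgin1, and the nearer match in Srxn1 and that in Osgin1 overlap the G form of the response element. Slc7a11 held 2 matches to TGATGNAAN, a relaxed form of the ATF4 and C/EBP composite site that was likewise added after the sequences had been seen (3.44% of windows), at 66 to 58 and at 48 to 40. The stricter TGATGNAAT (0.816% of windows) and the cAMP response element TGACGTCA (1.55%) were in none of these windows. A gene that passed the test in cKO mice alone (Osgin1) and a gene that passed in neither genotype (Srxn1) carry the same overlapping pair of motifs. Whether the motifs bear on the difference between sides was not tested. The Osgin1 window lies inside the GENCODE gene, which begins at chr8:119434124. The bases before that GENCODE start were not searched.

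**Figure D1:**
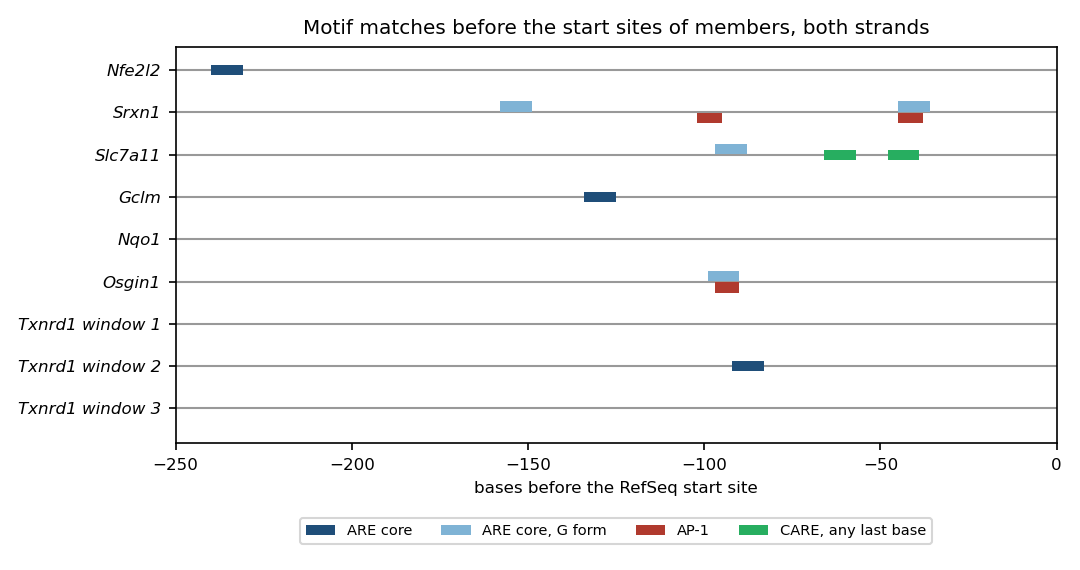
Positions of motif matches in the 250 bases before each RefSeq start site, 1 line per window, x axis in bases before the start and colours by motif. Osgin1 and Srxn1 each hold a G form of the antioxidant response element that overlaps an AP-1 match, and Nqo1 and the first and last Txnrd1 windows hold no match.

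The 9 genes differed widely in level. On the TPM scale, which corrects for transcript length, Srxn1 (sulfiredoxin, which restores overoxidized peroxiredoxins) was highest, at 65.2 to 93.5 TPM over the 12 libraries, above the range of every other gene of the set. Txnrd1, Gclm and Gclc followed with medians of 26.1, 23.8 and 22.3 TPM, and their ranges overlapped. Hmox1 had a median of 8.43 TPM and Nfe2l2 of 9.11 TPM, and Hmox1 was the higher in 5 of 12 libraries. Slc7a11 (median 5.37 TPM) was above Nqo1 (3.16 TPM) in 12 of 12 libraries, although their ranges over all libraries overlapped. Osgin1 was lowest, at 0.53 to 2.28 TPM, and its range did not overlap that of Nqo1.

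Hmox1 encodes heme oxygenase 1, the inducible enzyme that splits heme into biliverdin, iron and carbon monoxide. In wt contralateral cortex it was at 5.42, 6.22 and 5.84 CPM in libraries 1, 2 and 3, and in wt ipsilateral cortex at 8.85, 12.1 and 9.46 CPM. In cKO contralateral cortex it was at 5.99, 6.09 and 6.86 CPM, and in cKO ipsilateral cortex at 17.8, 15.3 and 9.21 CPM. Every ipsilateral library was above every contralateral library, and cKO ipsilateral library 3 was well below the other cKO ipsilateral libraries, at a level within the wt ipsilateral range. Hmox1 rose by 0.80 ± 0.19 on the log2 scale in wt, which is 1.74-fold (edgeR quasi-likelihood test, adjusted p = 0.0303). It rose by 1.21 ± 0.19 in cKO, which is 2.32-fold (adjusted p = 0.00112). The wt call was lost without wt contralateral library 1 (adjusted p = 0.102) or 2 (0.0896) and without wt ipsilateral library 2 (0.183) or 3 (0.0676), while the cKO call held in each of 22 alternatives. Without the 2 libraries that stood apart, cKO ipsilateral 3 and wt contralateral 3, the differences were 0.80 in wt and 1.40 in cKO (adjusted p = 0.00873 and 5.47e-05).

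Osgin1 encodes an oxidative stress induced growth inhibitor, and it rested on 10 to 63 estimated counts per library. It was at 0.829, 0.898 and 0.487 CPM in wt contralateral and at 0.983, 1.46 and 0.823 CPM in wt ipsilateral libraries, which overlapped. In cKO it was at 0.616, 0.810 and 0.619 CPM on the contralateral side and at 1.91, 2.52 and 1.24 CPM on the ipsilateral side, with no overlap. Osgin1 rose in cKO by 1.53 ± 0.34 on the log2 scale, a 2.90-fold difference (edgeR adjusted p = 0.0194), the largest point estimate of the 9 genes and also the widest interval (95% interval 0.82 to 2.25). In wt the difference was 0.55 ± 0.34 (adjusted p = 0.495). The cKO call was lost when 1 library was left out: the adjusted p was 0.148 without cKO ipsilateral library 2, 0.113 without cKO contralateral library 1, 0.0692 without contralateral library 3 and 0.0615 without ipsilateral library 1.

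Nfe2l2 is regulated mainly through the stability of its protein, which these data do not measure. Its RNA was at 10.3, 10.2 and 13.3 CPM in wt contralateral and at 15.04, 15.7 and 15.6 CPM in wt ipsilateral libraries. In cKO it was at 11.6, 11.04 and 8.91 CPM on the contralateral side and at 15.5, 17.9 and 14.3 CPM on the ipsilateral side. In both genotypes the 3 ipsilateral libraries lay above the 3 contralateral ones. Nfe2l2 rose in cKO by 0.61 ± 0.13 on the log2 scale, or 1.52-fold (edgeR adjusted p = 0.0183), and the wt difference of 0.46 ± 0.13, or 1.38-fold, missed the threshold (adjusted p = 0.0738). Without wt contralateral library 3, the highest of its group, the wt difference passed (adjusted p = 0.0132). It also passed without both libraries that stood apart (0.59, adjusted p = 0.0117). The cKO call was lost without cKO contralateral library 3 (0.0772) or cKO ipsilateral library 1 (0.0538) or 2 (0.137).

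Txnrd1 encodes cytosolic thioredoxin reductase, which keeps thioredoxin reduced. It was at 43.8, 47.4 and 54.3 CPM in wt contralateral and 58.9, 62.3 and 56.7 CPM in wt ipsilateral libraries. In cKO it was at 46.5, 46.5 and 51.7 CPM contralaterally and at 63.6, 57.8 and 54.7 CPM ipsilaterally. The sides did not overlap in either genotype. The difference was 0.29 ± 0.09 on the log2 scale in wt and in cKO, or 1.22-fold, and missed the threshold in both (edgeR adjusted p = 0.109 and 0.127). Without wt contralateral library 3, the highest of its group, both passed (adjusted p = 0.0179 and 0.0497). Without both libraries that stood apart the differences were 0.38 in wt and 0.33 in cKO, and both passed (adjusted p = 0.0152 and 0.0339).

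Srxn1, the most abundant of the set, passed the test in neither genotype. It was at 141, 132 and 121 CPM in wt contralateral and 133, 129.9 and 125 CPM in wt ipsilateral libraries. In cKO it was at 132, 136 and 118 CPM contralaterally and at 132, 127 and 104 CPM ipsilaterally. The groups overlapped, and the differences were -0.02 (95% interval -0.21 to 0.17) in wt and -0.09 (-0.28 to 0.11) in cKO on the log2 scale.

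The 3 genes of glutathione supply did not pass the test in either genotype. Gclc and Gclm encode the catalytic and modifier subunits of glutamate cysteine ligase, the rate-limiting enzyme of glutathione synthesis, and Slc7a11 the cystine importer xCT. Gclc ran from 43.4 to 52.6 CPM over the 12 libraries, and its side difference was 0.03 (95% interval -0.14 to 0.20) in wt and -0.02 (-0.20 to 0.15) in cKO on the log2 scale. Gclm ran from 34.9 to 46.4 CPM, with differences of 0.05 (-0.18 to 0.29) and 0.03 (-0.21 to 0.27). Slc7a11 was at 26.0, 30.6 and 44.8 CPM in wt contralateral libraries and within 30.8 to 36.6 CPM in the other 9, so that library 3 of that group was the highest of all. Its differences were -0.02 (-0.34 to 0.30) in wt and 0.02 (-0.31 to 0.34) in cKO. For Gclc the intervals leave room for a change of at most 1.15-fold in either direction.

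Nqo1 encodes a quinone reductase that is a standard NRF2 readout in many tissues. It was at 2.87, 2.97 and 2.62 CPM in wt contralateral and at 2.42, 3.05 and 3.25 CPM in wt ipsilateral libraries, and at 3.20, 2.51 and 2.38 CPM in cKO contralateral and 2.81, 4.004 and 4.11 CPM in cKO ipsilateral libraries. The groups overlapped in both genotypes. The differences were 0.04 ± 0.20 and 0.39 ± 0.20 on the log2 scale, and neither passed (edgeR adjusted p = 0.95 and 0.405).

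**Figure D2:**
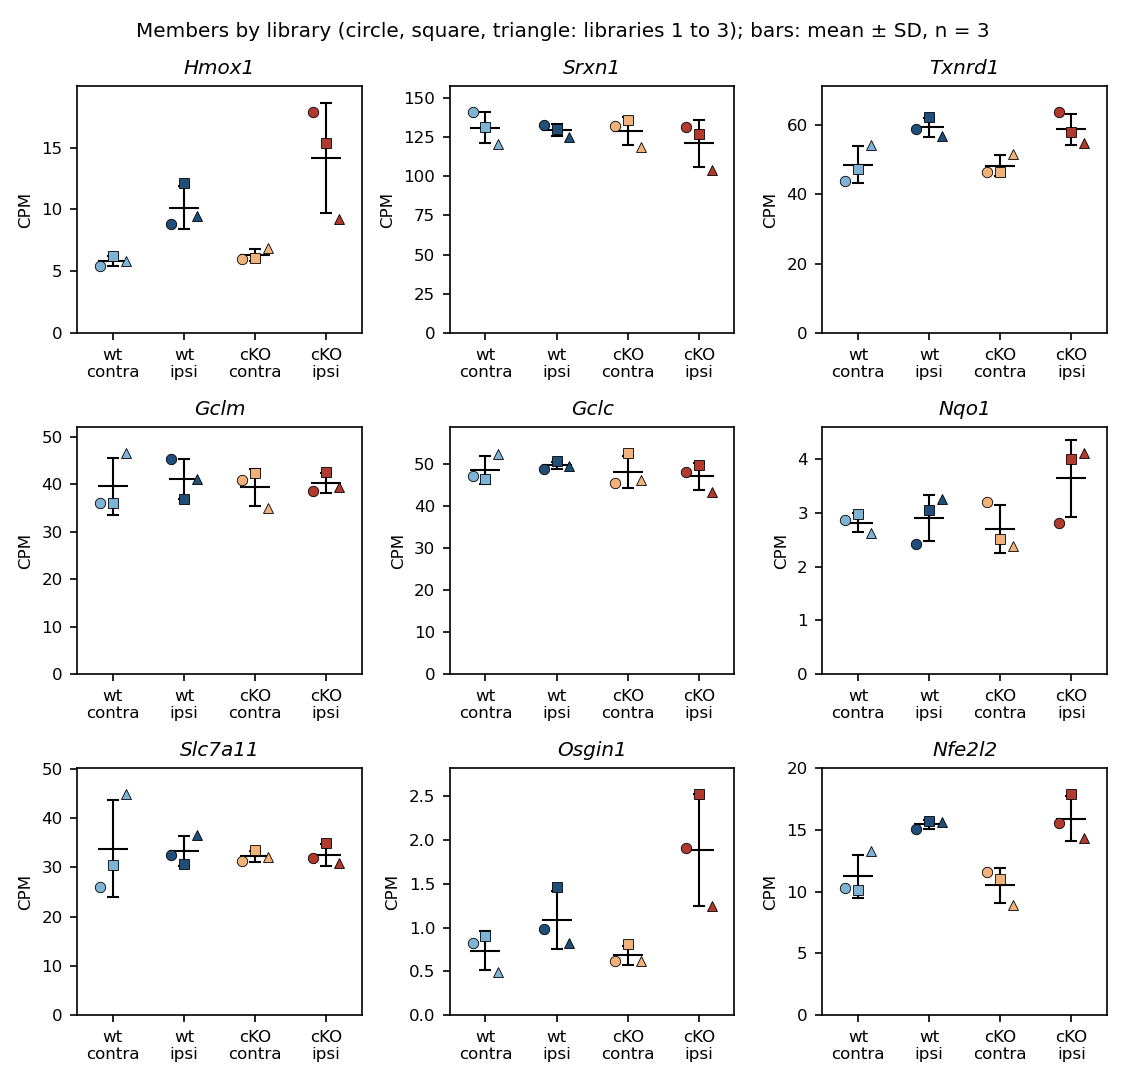
CPM of the 9 genes (y axis) in each library, by group, with the group mean and SD (n = 3) as bars and a zero-based y axis for each gene. Hmox1, Txnrd1 and Nfe2l2 lie higher in every ipsilateral library than in any contralateral library of the same genotype, and Srxn1, Gclm, Gclc and Slc7a11 overlap between sides.

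In wt, 1 of the 9 genes was called higher and 0 lower, where edgeR called 2.73% of all 16836 genes higher and 0.184% lower. In cKO, 3 of 9 were called higher and 0 lower, against 2.56% higher and 0.178% lower of all genes. The ipsilateral libraries lay above all contralateral ones for 3 of 9 genes in wt, against 10.5% of all genes, and for 4 of 9 in cKO, against 10.8%. They lay below for 0 of 9 in either genotype, against 8.7% of all genes in wt and 11.1% in cKO. Without the 2 libraries that stood apart, 3 of 9 were called higher in wt (Hmox1, Nfe2l2 and Txnrd1) and 4 of 9 in cKO (with Osgin1). The share of all genes called higher was then also larger, 4.45% in wt and 3.06% in cKO. That fit was chosen after seeing the data. Of the libraries it leaves out, wt contralateral library 3 was the highest of its group for Nfe2l2 and Txnrd1. The median log2 difference of the 9 was 0.05 in wt and 0.29 in cKO, and over all genes it was -0.01 in both. Because the 9 genes were chosen with earlier results of these data known, their shares are a description and no test of the set.

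**Figure D3:**
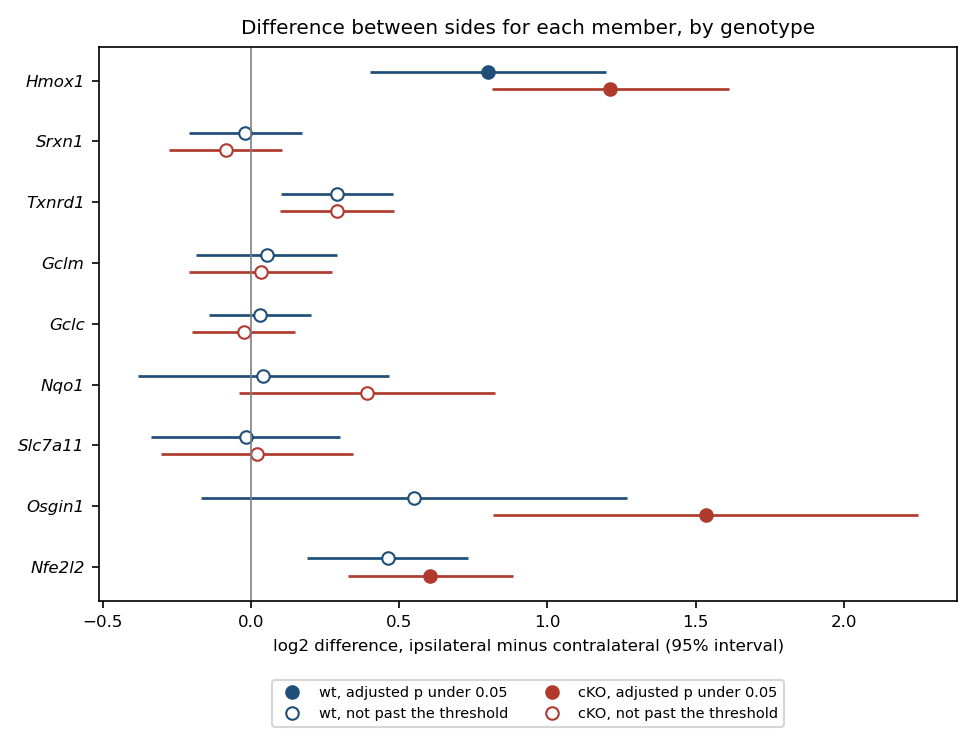
Log2 difference of ipsilateral minus contralateral cortex for each gene (x axis) in wt and cKO, with 95% intervals from the edgeR fit, filled where the adjusted p was under 0.05. Hmox1 is filled in both genotypes, Osgin1 and Nfe2l2 in cKO alone, and the intervals of wt and cKO overlap for each gene.

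No gene of the 9 passed the test between genotypes. In ipsilateral cortex, cKO minus wt, edgeR called 0 of 9, and 0% of all genes (987 of 16836 had an unadjusted p under 0.05, and DESeq2 called 10 genes, none of the 9). The largest differences were those of Osgin1, 0.86 ± 0.32 on the log2 scale or 1.82-fold, and Hmox1, 0.52 ± 0.18 or 1.44-fold. For both the edgeR adjusted p was 0.754, and without the 2 libraries that stood apart the differences were 1.02 and 0.71 (adjusted p = 0.456 and 0.178). The groups overlapped for all 9 genes, where 5.6% of all genes lay wholly higher in cKO and 5.99% wholly lower. With no filter on low counts Hmox1 passed (adjusted p = 0.046), in a fit that called 223 genes in place of 0. In contralateral cortex edgeR likewise called 0 of 9, and 0% of all genes (455 had an unadjusted p under 0.05, and DESeq2 called 3, none of the 9). There the differences ran from -0.12 (Osgin1) to 0.11 (Hmox1), and the groups of all 9 overlapped, where 3.4% of all genes lay wholly higher and 3.6% wholly lower. The difference of the injury response between genotypes was also called for 0 of 9 genes and 0% of all genes (381 with an unadjusted p under 0.05, and 0 called by DESeq2). It was 0.98 (95% interval -0.03 to 2.00) for Osgin1, 0.41 (-0.15 to 0.98) for Hmox1 and 0.14 (-0.25 to 0.54) for Nfe2l2. A call for Osgin1 and Nfe2l2 in cKO and not in wt is thus not shown to be a difference between genotypes, and the intervals are too wide to show that the genotypes respond alike.

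Among 73 other genes of the pathway in 6 lists, 72 passed the filter. In each genotype 3 of the 72 (4.17%) rose and 0 fell, a share near the 2.73% (wt) and 2.56% (cKO) of all genes called higher. The median log2 difference was -0.02 in wt and 0.00 in cKO. In the list of regulators 2 of 13 rose in wt and 3 of 13 in cKO. Maff and Mafk encode small MAF proteins, the DNA-binding partners shared by NRF2 and BACH1. Maff rose by 2.46 ± 0.18 on the log2 scale in wt, or 5.52-fold, from a mean of 4.49 to 24.8 CPM (edgeR adjusted p = 7.68e-07). It rose by 2.94 ± 0.19 in cKO, or 7.66-fold, from 3.71 to 28.03 CPM (adjusted p = 1.60e-07). Mafk rose by 1.21 ± 0.12 in wt, from 13.6 to 31.4 CPM, and by 1.41 ± 0.12 in cKO, from 11.8 to 31.4 CPM (adjusted p = 1.70e-05 and 3.96e-06). Bach1, the heme-sensitive repressor, rose in cKO by 0.88 ± 0.17 (adjusted p = 0.00676), and its wt difference was 0.61 ± 0.16 (adjusted p = 0.0623). As background, small MAF proteins lack an activation domain and can activate or repress, depending on the partner.

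In the list of heme and iron genes 1 of 10 rose in wt and 0 of 10 in cKO. Fth1, the ferritin heavy chain, rose in wt by 0.36 ± 0.08 (edgeR adjusted p = 0.0249), and in cKO its difference was 0.28 ± 0.08 (adjusted p = 0.0996). Fth1 has many processed copies in the genome, so its counts are uncertain. Ftl1, the ferritin light chain, was called in neither genotype. It was at 228 to 278 and 286 to 368 CPM in wt, and at 254 to 271 and 322 to 342 CPM in cKO, contralateral and ipsilateral. No gene passed in either genotype among 17 glutathione, 12 thioredoxin, 6 NADPH and 14 detoxification genes. The gene of highest TPM in each of these lists is given next. Gpx4, which reduces lipid peroxides, differed by 0.10 ± 0.11 in wt and 0.07 ± 0.11 in cKO. Prdx6, a peroxiredoxin, differed by 0.16 ± 0.07 and 0.10 ± 0.07. Tkt, of the pentose phosphate pathway, differed by -0.10 ± 0.08 and -0.04 ± 0.08, and Sod1, which removes superoxide, by -0.03 ± 0.10 and 0.13 ± 0.10.

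**Figure D4:**
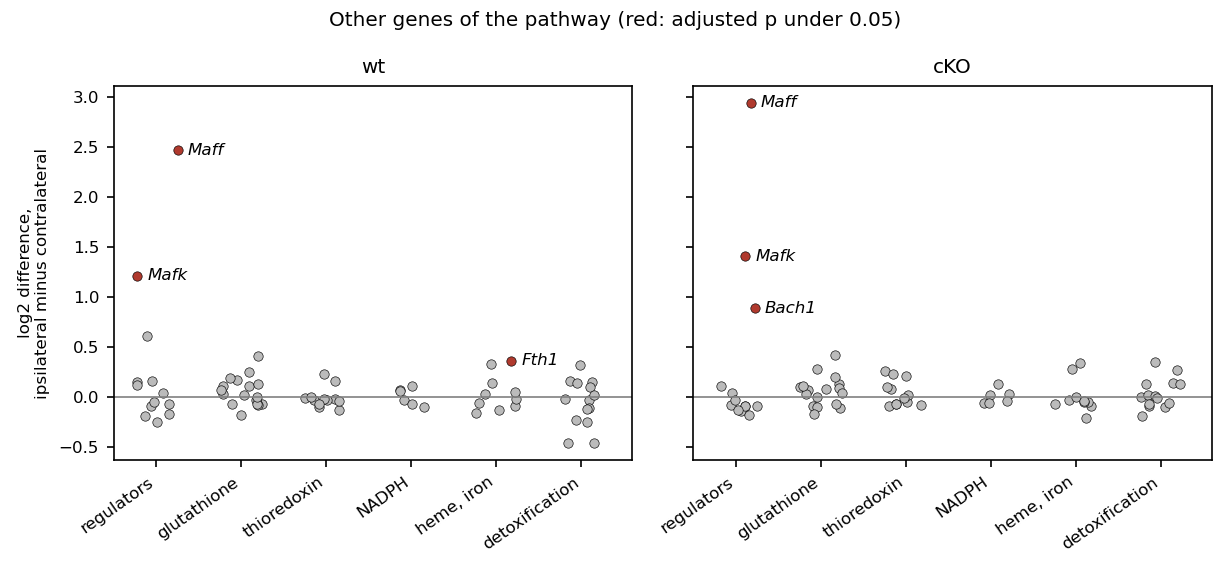
Log2 difference of ipsilateral minus contralateral cortex (y axis) for the 72 other pathway genes in 6 lists (x axis), in wt and cKO, red and named where the adjusted p was under 0.05. Maff and Mafk stand far above the rest in both genotypes, and most genes of the metabolic lists lie near 0.

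Over the 12 libraries, the genes whose centred log2 CPM profile was most like that of Hmox1, of 14496 compared, were Tnfrsf12a (root mean square difference 0.18), Csf3r (0.19) and Akap12 (0.19). Tnfrsf12a had group means of 6.36 and 12.7 CPM in wt and of 6.64 and 15.4 CPM in cKO, contralateral and ipsilateral. Csf3r, the receptor for granulocyte colony-stimulating factor, had means of 4.04 and 7.10 CPM in wt and of 4.08 and 8.73 CPM in cKO. It is in the list of neutrophil markers used below. In contralateral cortex S100a8 (0.14 CPM in wt and 0.16 in cKO) and Retnlg (0.01 and 0.02) of that list were near 0. Mmp9 of the list was at 1.53 CPM in wt and 1.16 in cKO there. Which cells gave the Csf3r RNA was not tested. For Srxn1 the nearest were Slc8a3 (0.04), Inpp5k (0.05) and Zfp110 (0.05), which like Srxn1 passed in no comparison. These genes were picked for their likeness over the same libraries, so a shared pattern between sides follows from the choice.

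Markers of red cells and of neutrophils, each summed, were higher in ipsilateral than in contralateral libraries of both genotypes. Summed red cell markers, 5 hemoglobin and heme synthesis genes, were at 2.10 to 242 CPM in wt contralateral and 597 to 2104 CPM in wt ipsilateral libraries, and at 4.75 to 81.6 and 602 to 933 CPM in cKO. Of these 5 genes 3 rose in wt and 5 in cKO. In ipsilateral cortex the red cell sum had a mean of 1393 CPM in wt and 768 CPM in cKO. There the sum of the neutrophil markers had means of 21.2 and 31.2 CPM, and Hmox1 of 10.15 and 14.1 CPM. For each of these the wt and cKO ipsilateral libraries overlapped. Neither Hmox1 nor any red cell or neutrophil marker that passed the filter was called between genotypes there. Summed neutrophil markers were at 5.90 to 5.99 CPM in wt contralateral and 12.1 to 30.8 CPM in wt ipsilateral libraries, and at 5.34 to 6.10 and 21.3 to 46.3 CPM in cKO. In contralateral cortex most of the sum came from Csf3r (mean 4.04 CPM in wt and 4.08 in cKO) and Mmp9 (1.53 and 1.16). Of the 7 that passed the filter, of 8 listed, 6 rose in wt and 7 in cKO, and Mmp8 and Ly6g were at 0 in all 6 contralateral libraries. Summed monocyte and macrophage markers overlapped between sides in wt, at 20.4 to 22.7 and 18.0 to 26.7 CPM, and in cKO, at 11.2 to 20.4 and 19.5 to 29.5 CPM. None of the 6 of 8 that passed the filter was called in wt, Lyz2 alone rose in cKO, and the defining monocyte genes Ccr2 and Ly6c2 failed the filter. Of 6 microglia markers Tmem119 fell in both genotypes, from 25.1 to 15.4 CPM in wt and from 22.04 to 13.5 CPM in cKO (edgeR adjusted p = 0.00564 and 0.00797), and the summed level was at 218 to 293 CPM over all libraries. Of 5 endothelial markers Flt1 rose in both, from 64.8 to 84.7 CPM in wt and from 55.4 to 77.6 CPM in cKO (adjusted p = 0.0413 and 0.0102). Summed endothelial markers were at 169 to 196 and 192 to 249 CPM in wt and at 162 to 178 and 198 to 218 CPM in cKO, contralateral and ipsilateral. The part of blood, infiltrating and endothelial cells in the Hmox1 difference was not tested.

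**Figure D5:**
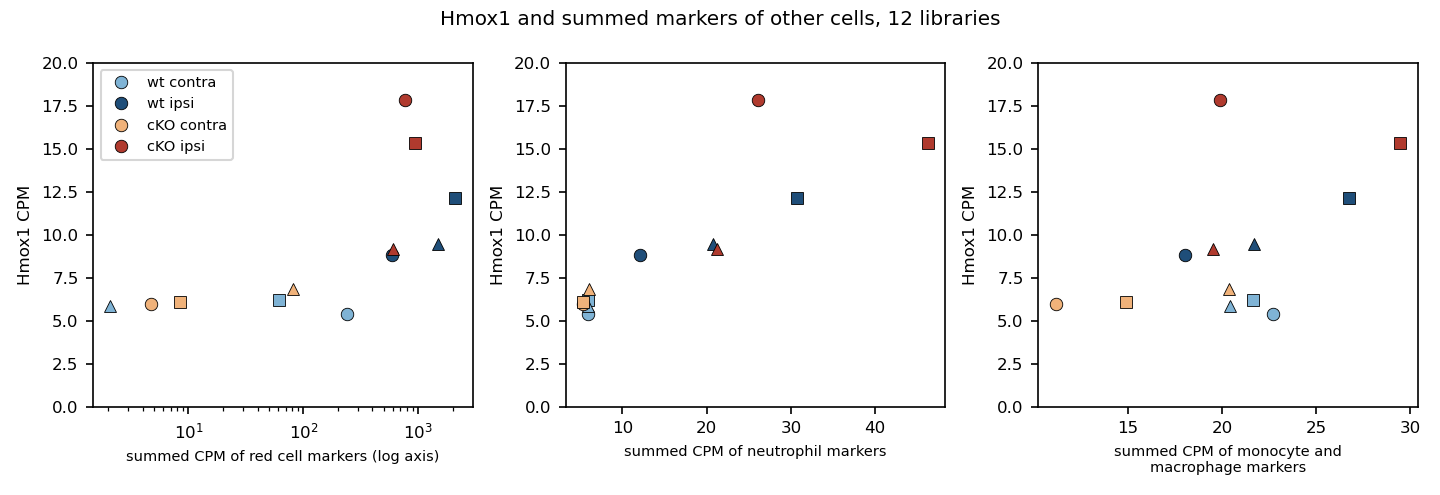
Hmox1 CPM (y axis) against the summed CPM of red cell (log axis), neutrophil, and monocyte and macrophage markers in the 12 libraries, coloured by group and with circle, square and triangle for libraries 1, 2 and 3. Ipsilateral libraries are higher in Hmox1, red cell and neutrophil markers than contralateral ones, and monocyte and macrophage markers overlap.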

How the data were processed

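RNA of ipsilateral and contralateral cortex was sequenced with a stranded mRNA kit, per the labels' protocols. Per the submitters' processing notes the tools were Trim Galore 0.6.4, STAR 2.7.1a, RSEM 1.2.28 and DESeq2 1.36.0, with build mm10. The annotation and strand setting are not given in the sources used here. The authors deposited RSEM expected counts, as whole numbers, and TPM per gene and library.

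Symbols and positions came from GENCODE M21 (55141 of 55487 genes matched). Genes were kept by filterByExpr (minimum count 10, minimum total 15), leaving 16836, with at least 99.9% of each library's counts. TMM scaling was applied, and edgeR 4.0.16 (R 4.3.3) fitted 1 quasi-likelihood model to 4 groups of 3 libraries. The 5 comparisons were adjusted by Benjamini-Hochberg over all kept genes, threshold 0.05. CPM use the scaled library sizes, ± is SE for log2 differences, and intervals are 95% and cover the spread of these libraries. Alternatives used DESeq2 1.42.0, limma 3.58.1 on log2(TPM + 1 or 0.1), other scalings and filters, a replicate block and each library left out. The limma fits took genes with a mean of at least 1 TPM. A further alternative without cKO ipsilateral library 3 and wt contralateral library 3 was chosen after seeing the data.

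The 9 genes and the lists were chosen with earlier results of these data known. All 9 were described in every comparison. From each list the called genes with the smallest adjusted p (at most 4) were named, or, where none was called, the gene of highest TPM. For Hmox1 and Srxn1 the 3 nearest profiles among genes of at least 1 CPM were named. Motifs were searched in RefSeq windows of GRCm38.p6.

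Labels number the libraries 1 to 3 in each group. Deviations from group means of same-numbered sides correlated at 0.25, 0.31 and 0.24 in cKO (9866 genes of at least 10 CPM), and at -0.30, 0.46 and 0.00 in wt. Over all 16836 kept genes the cKO correlations were lower, at 0.07, 0.09 and 0.06, so the pairing is uncertain. For the side comparisons and the difference of responses, the blocked fit paired same-numbered libraries within both genotypes at once, and cKO was not blocked alone. For the cKO minus wt comparisons it grouped libraries by number alone, across genotypes, where equal numbers cannot be 1 animal.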

Additional observations from a re-analysis of the deposited data

How the results depend on the processing

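Each result was recomputed under up to 22 alternatives, and no called difference changed direction. In wt the count of the 9 genes called was 1. It was 2 with no filter on low counts, with DESeq2 and with the replicate block (Hmox1 and Nfe2l2), 0 with limma on log2(TPM + 1) and on log2(TPM + 0.1), and 3 without the 2 libraries that stood apart (with Txnrd1). Leaving out each library in turn gave 0 to 3. In cKO the count was 3. It was 1 (Hmox1) with limma at either pseudocount, and 1 to 4 with each library left out. In the ipsilateral genotype comparison it was 0, and 1 with no filter (Hmox1). The replicate block, which pairs same-numbered libraries, kept the count of 3 in cKO. It gave Nfe2l2 an adjusted p of 0.0417 in wt, where the numbers are not shown to pair the libraries. Adjusted p-values over the alternatives ran for Hmox1 from 7.76e-06 to 0.196 in wt, 7.40e-14 to 0.0117 in cKO and 0.046 to 1 for the ipsilateral genotype difference. In cKO they ran from 0.000678 to 0.148 for Osgin1 and from 0.000334 to 0.170 for Nfe2l2, and in wt from 0.0117 to 0.332 for Nfe2l2. For Txnrd1 they ran from 0.0152 to 0.575 in wt and 0.0339 to 0.698 in cKO. Maff and Mafk kept their calls in all 22, Bach1 lost its cKO call in 4 and Fth1 its wt call in 8. Over all genes kept in each fit, edgeR called 491 in wt and 461 in cKO, against 991 and 968 with no filter and 139 and 174 with limma at pseudocount 1 (138 and 170 at 0.1). In wt they were 766 with DESeq2, 968 without the 2 libraries that stood apart, 861 without wt contralateral library 3, 250 without contralateral library 2, and 281 and 310 without ipsilateral libraries 2 and 3. In cKO they were 572 without those 2 libraries, 280 without contralateral library 1 and 277 without ipsilateral library 2. With no filter the genotype comparisons called 223 (ipsilateral), 96 (contralateral) and 72 genes (difference of responses), where edgeR with the filter called 0. On the scale of log2(TPM + 1), over genes with a mean of at least 1 TPM, the median log2 difference was -0.18 in wt and 0.16 in the ipsilateral genotype comparison. Over the genes of the edgeR fit, a different set, it was -0.01 and 0.00. The causes were not tested. Osgin1 had the lowest counts, 10 to 63 per library.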

Other observations

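Gclm in cKO ipsilateral library 3 was at 50.2 TPM, where the other 11 libraries ran from 17.7 to 33.6 TPM, yet its CPM there, 39.4, lay inside the range of the other libraries. The ratio of Gclc to Gclm TPM was 0.471 in that library and 0.767 to 1.22 in the others. This is the shallowest library. Bc1, a short noncoding neuronal RNA that takes a large share of the TPM total, was at 10548 TPM in it and at 83028 to 167036 TPM in the other 11. These values were chosen for description after they were seen.

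The same library had the lowest value of its group for 7 of the 9 genes in CPM. Library 3 of the wt contralateral group was the highest of its group for Txnrd1, Gclm, Gclc, Slc7a11 and Nfe2l2.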
